A study of Drosophila melanogaster with 30 samples.

Results

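The genes described are 7 larval temporal genes of Drosophila melanogaster, which act in neural stem cells or in the neurons they make. They are Imp, CG17838 (Syncrip, listed as Syp in RefSeq), lin-28, chinmo, br, mamo and Eip93F. They were chosen by name, as the rows with these gene names in every count table, and not by their values. They are 7 of the 14284 genes counted, and all 7 passed the filter on low counts for both marks.

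Neuroblasts, the neural stem cells of the fly, change what they make as the larva ages. Young larval neuroblasts hold much of the RNA-binding protein Imp and of the transcription factor Chinmo, old ones hold much of the RNA-binding protein Syncrip, and Imp and Syncrip repress each other and act on chinmo RNA in opposite directions. The steroid hormone ecdysone drives later steps of the series, in which Broad (the product of br) and E93 (the product of Eip93F) appear. The early factors can be kept on in brain tumours of neuroblast origin.

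The libraries come from cells isolated from brains of wandering L3 larvae, treated with micrococcal nuclease (MNase) and immunoprecipitated for 1 of 2 histone marks. Trimethylated lysine 4 of histone H3 (H3K4me3) lies at starts of active genes, and trimethylated lysine 27 (H3K27me3) is the mark of Polycomb repression. Each mark was profiled in 4 cell groups with 2 libraries apiece. They are type I neuroblasts (called wt in the labels), brat RNAi neuroblasts and brat RNAi numb RNAi neuroblasts (here brat numb RNAi), both labelled as tumor neuroblasts, and neurons. The driver and cell type of the RNAi are not given in the sources used here. Brat and Numb are proteins that a dividing neuroblast passes to its daughter to end self-renewal, and tumours from their loss are known from type II lineages. Whether both RNAi groups here are of that origin is not given, and their values at ase and tll (below) differ. No normal type II neuroblasts were among the groups, so tumour state and any difference of lineage cannot be told apart. In bulk libraries, fewer cells with a mark and less mark per cell cannot be told apart either. The labels do not say that libraries of a group came from different animals, so the p-values cover the spread between these samples alone, which may be technical.

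H3K4me3 reads were counted in a single window of 501 bases that opens at the outermost start of a gene, so other starts inside the gene were not measured. H3K27me3 reads were counted over the whole gene model. The gene models in the tables list 11 transcripts for Imp, 8 for CG17838, 6 for chinmo, 13 for br, 3 for Eip93F, 5 for mamo and 1 for lin-28. H3K4me3 levels are in CPM (reads scaled to a common library total) with TMM scaling, and H3K27me3 levels are in CPM per kb of gene. On the dm3 build, Imp lies on the minus strand of chromosome X from 10682721 to 10716815 and CG17838 on the plus strand of 3R from 16582451 to 16631963. The gene lin-28 spans 5647783 to 5650484 on the plus strand of 3L, chinmo 1651260 to 1704682 on the plus strand of 2L, and br 1469165 to 1558700 on the plus strand of X. The remaining pair are mamo, from 13759895 to 13879887 on the minus strand of X, and Eip93F, from 17774836 to 17837910 on the plus strand of 3R. Each H3K4me3 window is the first 501 bases in the direction of transcription. At 2702 bases lin-28 is short, whereas the other members span 34095 (Imp) to 119993 bases (mamo), over which a local change is averaged out.

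Total counts per library were 2461222 to 12258131 for H3K4me3 and 15281722 to 25009648 for H3K27me3. Contrast differed between libraries: the gene at the 90th percentile stood 5 to 27.5 times above the median gene for H3K4me3 and 1.35 to 2.64 times for H3K27me3. The second library of brat RNAi, the first of brat numb RNAi and the second of neurons had the lowest H3K4me3 contrast, at 6.45, 5 and 7.05. Neuroblast markers (7 genes) summed to 557 to 1191 CPM of H3K4me3 in the 6 neuroblast libraries and to 191 and 198 CPM in neurons. The sum hides ase, the only 1 of the 7 called in brat RNAi against type I neuroblasts (log2 fold change -3.01, edgeR adjusted p = 0.04). Its mean H3K4me3 was 168 CPM in type I neuroblasts (SD 16.8), 21.2 in brat RNAi (SD 18.1) and 137 in brat numb RNAi (SD 48.5). Its mean H3K27me3 was 16.8, 44.8 and 18.9 CPM in the same order. Neuron markers (6 genes) summed to 773 and 476 CPM in neurons, 508 and 217 CPM in type I neuroblasts and 168 to 216 CPM in the RNAi groups. Glia markers (5 genes) summed to 67.4 to 259 CPM and hemocyte and fat body markers (5 genes) to 18.4 to 67.4 CPM, and no marker was at 0 counts in any library. The RNAi targets are no check of the labels, because a histone mark does not measure RNA: H3K4me3 at brat was 149.7 to 401 CPM and at numb 10.3 to 74.0 CPM, and no comparison called either gene.

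No member passed the threshold, an edgeR quasi-likelihood adjusted p of 0.05 over all genes tested, in any of the 8 comparisons. For H3K4me3 that test called 0.451% of 14185 genes in neurons against type I neuroblasts, 0.0987% in brat RNAi against type I neuroblasts, and 0% in brat numb RNAi, both against type I neuroblasts and against brat RNAi. For H3K27me3 it called 0% of 14182 genes in all 4 comparisons, so the absence of calls is not particular to these genes. At an unadjusted p under 0.05, in the same order of comparisons, H3K4me3 had 1, 2, 1 and 1 of the 7 members against 7.23%, 5.52%, 3.26% and 1.52% of all genes. H3K27me3 had 2, 3, 2 and 2 of the 7 against 9%, 5.94%, 2.96% and 18.8% of all genes. DESeq2 called 1 member for each mark, Eip93F in brat RNAi against type I neuroblasts both times. In that comparison it called 100 of 14185 genes for H3K4me3 and 36 of 14182 for H3K27me3, where edgeR called 14 and 0. Limma on loess-scaled values called no member, and 2 and 0 genes in that comparison. The first 3 comparisons share the type I libraries, and brat numb RNAi against brat RNAi reuses the libraries of both groups. Their values stand side by side here and are not independent.

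The RNA-binding protein Imp showed the widest spread of H3K27me3 between groups among the 6 long members. Its H3K27me3 level was 26.6 and 14.6 CPM per kb in type I neuroblasts and 35.8 and 10.6 CPM per kb in neurons. In brat RNAi it was 4.35 and 6.42 CPM per kb, and in brat numb RNAi 7.54 and 6.07 CPM per kb. All 4 RNAi libraries lay below all 4 others, with no overlap. In type I neuroblasts and neurons Imp was above the library's median gene, at 1.22 to 4.18 times its level, and in the RNAi groups below it, at 0.512 to 0.874 times.

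The fitted H3K27me3 log2 fold change of Imp was -1.94 ± 0.57 (SE; edgeR adjusted p = 0.68) in brat RNAi against type I neuroblasts. It was -1.60 ± 0.57 (edgeR adjusted p = 0.86) in brat numb RNAi and 0.17 ± 0.55 (adjusted p = 0.89) in neurons. The neuron value changed sign with single libraries, to -0.91 without the first neuron library and to -0.20 without the second type I library. Fitted on the compared groups alone, brat RNAi gave the same -1.94 with an edgeR adjusted p of 5.5e-05. That smaller fit called 24 genes in all, against 0 with all groups fitted. In the fit of all groups, leaving out single libraries gave -2.31 to -1.47. Within the labels' code 26, the 1 code with both groups, the log2 ratio of brat RNAi to type I neuroblasts was -2.61. Contrast in the brat RNAi libraries (2.64 and 2.09) overlapped that of the type I libraries (2.27 and 1.91), and in brat numb RNAi it was lower than in both (1.67 and 1.79). The sum of neuron markers was also higher in the H3K4me3 libraries of type I neuroblasts and neurons than in those of brat RNAi and brat numb RNAi, narrowly so for the second type I library (217 against at most 216 CPM), and the part of neurons in the Imp values was not tested.

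**Figure D1:**
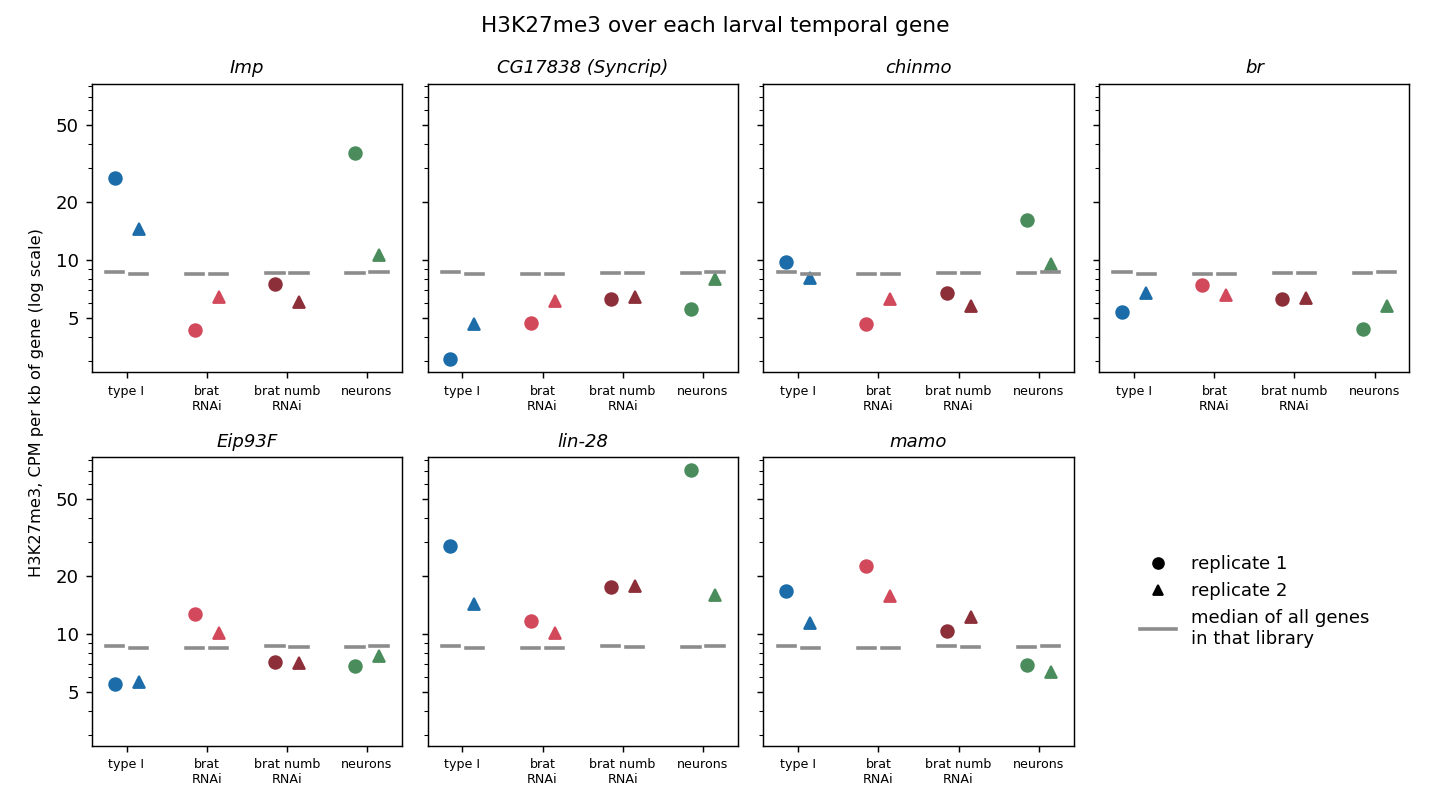
H3K27me3 level (CPM per kb of gene, log scale) of the 7 genes in each of the 8 libraries; circles are replicate 1, triangles replicate 2, and grey bars mark the median of all genes in that library. Imp and chinmo lie lower in all 4 RNAi libraries than in the other 4, Eip93F is highest in brat RNAi, and mamo is lowest in neurons.

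The flanks of Imp were low in every group, so a fall there could hardly show. The nearest genes in the tables, sesB (1742 bases away) and sbr (9969 bases away), had H3K27me3 log2 fold changes of -0.22 ± 0.37 and -0.07 ± 0.36 in brat RNAi against type I neuroblasts. In brat numb RNAi they had -0.11 ± 0.37 and 0.18 ± 0.36. Both stood between 3.54 and 6.53 CPM per kb in every group mean, below the median gene of the libraries (8.465 to 8.712). Imp was at 20.6 ± 8.52 CPM per kb (SD, n = 2) in type I neuroblasts. Among the 624 genes of at least 30 kb, the H3K27me3 level of Imp stood at percentiles 95 and 90.5 in type I neuroblasts and 94.2 and 82.5 in neurons. It stood at percentile 5.05 in both brat RNAi libraries and at 23.3 and 9.86 in brat numb RNAi.

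H3K4me3 in the window at the start of Imp was low in every group. It read 9.94 and 3.995 CPM in type I neuroblasts, 6.28 and 11.2 CPM in brat RNAi, 8.11 and 12.3 CPM in brat numb RNAi, and 3.69 and 13.1 CPM in neurons. All groups overlapped, and each library was below its own median gene. The 4 log2 fold changes lay between 0.24 and 0.56, with SE of 0.83 or 0.84, and 3 of them turned negative under cyclic loess scaling (to -0.43 in neurons).

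CG17838 encodes Syncrip, the RNA-binding protein that opposes Imp. Its H3K27me3 level was 3.08 and 4.68 CPM per kb in type I neuroblasts, 4.75 and 6.18 CPM per kb in brat RNAi, 6.29 and 6.45 CPM per kb in brat numb RNAi, and 5.60 and 7.98 CPM per kb in neurons. Both type I libraries were below all 6 others, a pattern of 2 members (with Eip93F) and of 1.82% of all genes. Every library was nevertheless below its median gene, at 0.354 to 0.917 times its level. Relative to the median of genes of at least 30 kb, type I neuroblasts (0.254 and 0.454 times) overlapped brat RNAi (0.322 and 0.477 times). On that scale brat numb RNAi (0.679 and 0.707 times) and neurons (0.528 and 0.887 times) stayed above type I neuroblasts. Against type I neuroblasts the H3K27me3 log2 fold change was 0.81 ± 0.26 in neurons (edgeR adjusted p = 0.53), 0.49 ± 0.26 in brat RNAi (adjusted p = 0.86) and 0.72 ± 0.26 in brat numb RNAi (adjusted p = 0.86). The genes of at least 30 kb had medians of -0.13, 0.27 and -0.28 in the same order.

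Genes beside CG17838 also had higher mean values, though none was called and not all stood clear of their SE. The genes CG31195 and Takl1 lie inside its model and share its reads, and CG42322 ends 89 bases before it. Against type I neuroblasts, CG42322 had H3K27me3 log2 fold changes of 0.58, 0.56 and 0.68 (SE 0.24 each) in neurons, brat RNAi and brat numb RNAi. Takl1 had 1.06, 1.14 and 1.35 (SE 0.35 each). On the other side Fancd2 had 0.83, 0.31 and 0.78 (SE 0.52 each). H3K4me3 at the start of CG17838 was 5.66 and 11.6 CPM in type I neuroblasts, 8.51 and 13.5 CPM in brat RNAi, 21.6 and 13.8 CPM in brat numb RNAi, and 11.9 and 18.9 CPM in neurons. The type I libraries overlapped those of brat RNAi only, and every library was at 0.532 to 1.07 times its median gene.

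The gene lin-28, whose RNA-binding product blocks maturation of the let-7 microRNA in animals, had its lowest H3K4me3 in type I neuroblasts. The level was 2.76 and 7.99 CPM in type I neuroblasts, 28.5 and 29.6 CPM in brat RNAi, 12.1 and 32.1 CPM in brat numb RNAi, and 3.96 and 16.3 CPM in neurons. Both RNAi groups lay above the type I libraries without overlap, and neurons overlapped type I neuroblasts and brat numb RNAi. The H3K4me3 log2 fold change against type I neuroblasts was 2.42 ± 0.80 in brat RNAi (edgeR adjusted p = 0.35) and 2.03 ± 0.79 in brat numb RNAi (edgeR adjusted p = 0.64). Across the other normalizations, tests and blocks it was 2.04 to 3.51 in brat RNAi and 1.33 to 3.63 in brat numb RNAi. Single libraries moved it as well: brat RNAi gave 1.86 without the first and 3.38 without the second type I library, and brat numb RNAi gave 1.15 without its own second library and 2.995 without the second type I library.

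Relative to the median gene of its library, lin-28 H3K4me3 stood at 2.55 and 1.30 times in brat RNAi and at 0.26 and 0.573 times in type I neuroblasts. In brat numb RNAi it stood at 0.545 and 2.34 times, and on this scale the low-contrast first library of that group overlapped type I neuroblasts. A fit blocked by the labels' SBa code has 1 residual degree of freedom; there edgeR gave adjusted p = 5.6e-08 for brat RNAi (log2 fold change 3.51) and 0.00086 for brat numb RNAi (3.63). That fit also called 572 and 346 genes in all, against 14 and 0 in the fit without it.

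H3K27me3 over lin-28 was 28.6 and 14.2 CPM per kb in type I neuroblasts, 11.7 and 10.1 CPM per kb in brat RNAi, 17.4 and 17.7 CPM per kb in brat numb RNAi, and 70.5 and 16.0 CPM per kb in neurons. Both brat RNAi libraries were below the other 6, as for 9.47% of all genes, and every library was above its median gene, at 1.19 to 8.23 times its level. The log2 fold change in brat RNAi against type I neuroblasts was -0.97 ± 0.60 (edgeR adjusted p = 0.91). The neurons rested on 1 library: their log2 fold change of 1.01 ± 0.60 became -0.37 without the first neuron library. The gene at the 99th percentile stood 13 times above the median in that library and 3.98 times in the other neuron library. The nearest gene on the lower-coordinate side, Blimp-1, an ecdysone-responsive repressor 5733 bases away, had H3K27me3 log2 fold changes of -0.49 ± 0.41 in brat RNAi and -0.43 ± 0.41 in brat numb RNAi. The closer gene on the other side, sif at 2044 bases, had 0.15 ± 0.24 and -0.31 ± 0.24.

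**Figure D2:**
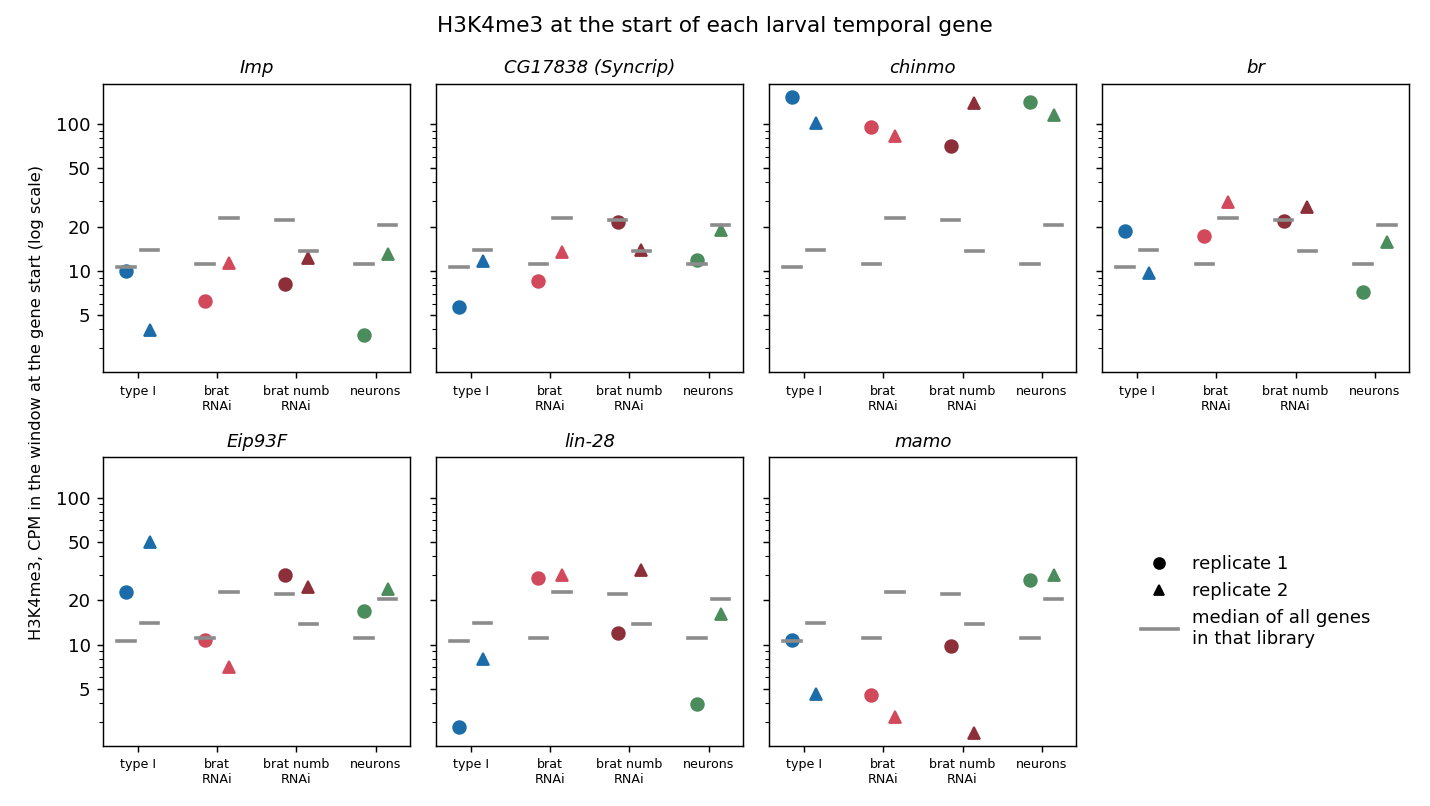
H3K4me3 level (CPM in the 501-base window, log scale) of the 7 genes in each of the 8 libraries, drawn as in the plot of H3K27me3. Only chinmo lies above the grey median bar in all 8 libraries; lin-28 is low in type I neuroblasts, Eip93F is lowest in brat RNAi, and mamo is highest in neurons.

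Among the transcription factors, chinmo, which encodes a BTB zinc finger protein of early-born neurons and young neuroblasts, was the only member with H3K4me3 above the median gene in all 8 libraries. The level was 153 and 102 CPM in type I neuroblasts, 95.3 and 82.6 CPM in brat RNAi, 70.6 and 139.6 CPM in brat numb RNAi, and 141 and 116 CPM in neurons. These are 3.19 to 14.4 times the median gene of the same library. The brat RNAi libraries were below those of type I neuroblasts and neurons, and brat numb RNAi overlapped every group. The H3K4me3 log2 fold change was -0.52 ± 0.67 in brat RNAi (edgeR adjusted p = 0.81), -0.28 ± 0.66 in brat numb RNAi (adjusted p = 0.78) and 0.01 ± 0.66 in neurons (adjusted p = 1).

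H3K27me3 over chinmo was 9.76 and 8.14 CPM per kb in type I neuroblasts, 4.68 and 6.29 CPM per kb in brat RNAi, 6.79 and 5.82 CPM per kb in brat numb RNAi, and 16.1 and 9.54 CPM per kb in neurons. As for Imp, all 4 RNAi libraries were below all 4 others, a pattern of 2 of the 7 members and of 0.754% of all genes tested (107 genes). The H3K27me3 log2 fold change against type I neuroblasts was -0.71 ± 0.27 in brat RNAi (edgeR adjusted p = 0.75), -0.51 ± 0.27 in brat numb RNAi (adjusted p = 0.86) and 0.52 ± 0.27 in neurons (adjusted p = 0.53). Within code 26 the log2 ratio was -1.06 for brat RNAi and 0.72 for neurons against type I neuroblasts. The flanking genes RFeSP and cpb had -0.25 ± 0.27 and -0.07 ± 0.35 in brat RNAi. The genes of at least 30 kb had a median of 0.27 in brat RNAi and -0.28 in brat numb RNAi.

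Broad, the product of br, is a BTB zinc finger protein of the ecdysone response. Its H3K27me3 level varied least among the members: 5.42 and 6.75 CPM per kb in type I neuroblasts, 7.47 and 6.59 CPM per kb in brat RNAi, 6.32 and 6.34 CPM per kb in brat numb RNAi, and 4.39 and 5.78 CPM per kb in neurons. Every library was below its median gene, and type I neuroblasts overlapped each other group. The 4 H3K27me3 log2 fold changes ran from -0.26 ± 0.20 in neurons to 0.21 ± 0.20 in brat RNAi against type I neuroblasts. The model of br overlaps that of Mur2B and holds CG11509, which share its reads. Of its nearest separate genes, dor (387 bases away) had H3K27me3 log2 fold changes of 0.28, -0.27 and 0.57 (SE 0.36 each) in neurons, brat RNAi and brat numb RNAi, and snmRNA:400 (16731 bases away) had at most 1.24 CPM in any group mean. H3K4me3 at the start of br was 18.8 and 9.68 CPM in type I neuroblasts, 17.3 and 29.2 CPM in brat RNAi, 22.0 and 27.1 CPM in brat numb RNAi, and 7.25 and 15.8 CPM in neurons. The brat numb RNAi libraries lay above those of type I neuroblasts, at a log2 fold change of 0.79 ± 0.75 (edgeR adjusted p = 0.64), and neurons overlapped type I neuroblasts.

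The BTB zinc finger gene mamo, which acts in the fate of neurons born in the middle of the mushroom body series, stood apart in neurons for both marks, with more H3K4me3 and less H3K27me3. Its H3K4me3 level was 27.8 and 29.9 CPM in neurons, 10.8 and 4.62 CPM in type I neuroblasts, 4.56 and 3.21 CPM in brat RNAi, and 9.73 and 2.52 CPM in brat numb RNAi. Both neuron libraries were above the other 6, as for 3.55% of all genes. The H3K4me3 log2 fold change in neurons against type I neuroblasts was 1.91 ± 0.87 (edgeR adjusted p = 0.56). It was 1.33 within code 27 and 2.57 within code 51. The fit blocked by SBa code gave 2.01 (edgeR adjusted p = 4.2e-06) and called 4611 genes in all.

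H3K27me3 over mamo was 6.92 and 6.32 CPM per kb in neurons, 16.6 and 11.4 CPM per kb in type I neuroblasts, 22.6 and 15.8 CPM per kb in brat RNAi, and 10.4 and 12.3 CPM per kb in brat numb RNAi. Both neuron libraries were below the other 6, as for 8.79% of all genes, and only there was mamo below the median gene (0.808 and 0.726 times). The H3K27me3 log2 fold change in neurons was -1.08 ± 0.23 (edgeR adjusted p = 0.53), which ranked 11 of 14182 genes by p. It was -1.26 within code 26, -0.76 under cyclic loess scaling and -1.33 to -0.76 without single libraries. Among genes of at least 30 kb, mamo stood at percentiles 10.3 and 4.09 in neurons and at 67.5 to 90.8 in the other 6 libraries.

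The neighbourhood of mamo was not uniform. CG11068, inside the mamo model, had an H3K27me3 log2 fold change of -2.00 ± 0.57 in neurons against type I neuroblasts. Of the flanking genes CG11071 had -0.82 ± 0.40 and ben 0.40 ± 0.38. Between the tumour groups mamo carried less H3K27me3 in brat numb RNAi than in brat RNAi, without overlap, at a log2 fold change of -0.76 ± 0.23 (edgeR adjusted p = 0.2). The genes of at least 30 kb had a median of -0.54 in that comparison, and CG11071 had -0.99 ± 0.40.

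**Figure D3:**
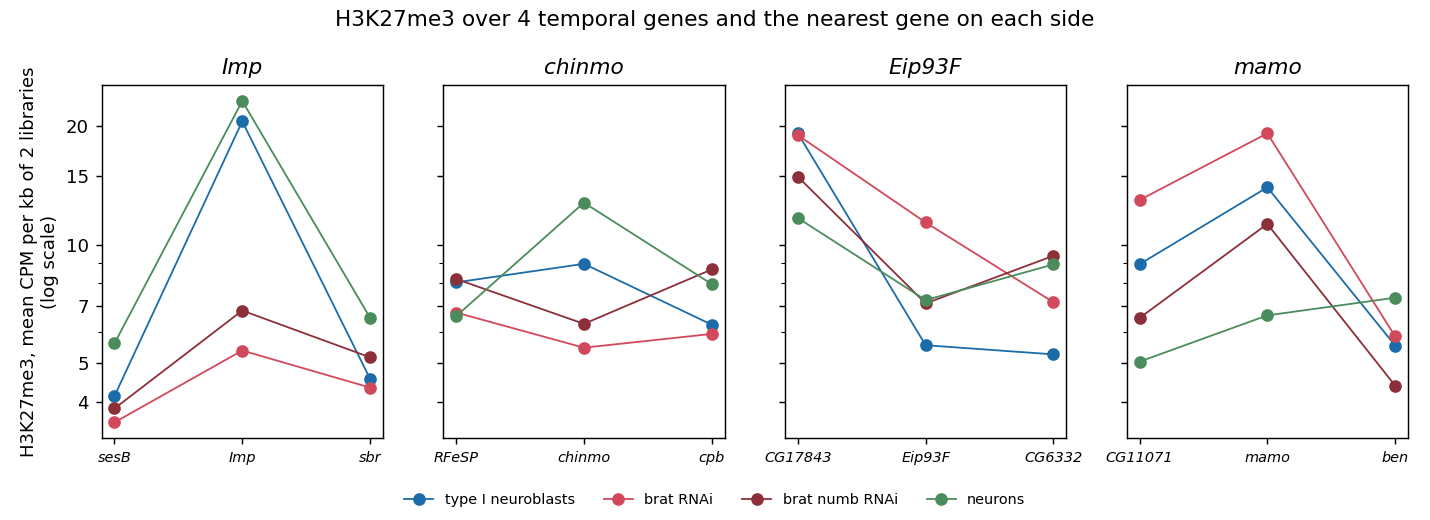
Mean H3K27me3 level of 2 libraries (CPM per kb, log scale) over Imp, chinmo, Eip93F and mamo and over the nearest gene in the tables on each side, 1 line per group. Imp rises above both flanks in type I neuroblasts and neurons and lies close to them in the RNAi groups, and in neurons mamo lies between its flanks instead of above them.

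Eip93F encodes E93, an ecdysone-induced transcription factor of the late larva, and stood apart in brat RNAi for both marks, with less H3K4me3 and more H3K27me3. Its H3K4me3 level was 10.8 and 7.07 CPM in brat RNAi, 22.6 and 49.9 CPM in type I neuroblasts, 29.9 and 24.5 CPM in brat numb RNAi, and 17.0 and 24.1 CPM in neurons. Both brat RNAi libraries were below the other 6, as for 1.93% of all genes, and only there was Eip93F below the median gene (0.973 and 0.31 times). The H3K4me3 log2 fold change was -2.00 ± 0.76 in brat RNAi against type I neuroblasts (edgeR adjusted p = 0.61). DESeq2, which called 100 genes in all there, gave -2.04 with an adjusted p of 0.027. Over the other normalizations, tests and blocks the log2 fold change was -2.13 to -1.23. Without single libraries it was -2.46 to -1.32 (the latter without the second type I library). Within code 27 the log2 ratio was -1.03. The second brat RNAi library held 22 reads in the window and had low contrast.

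H3K27me3 over Eip93F was 12.7 and 10.1 CPM per kb in brat RNAi, 5.48 and 5.64 CPM per kb in type I neuroblasts, 7.15 and 7.06 CPM per kb in brat numb RNAi, and 6.83 and 7.65 CPM per kb in neurons. The brat RNAi libraries were above the other 6, as for 9.74% of all genes, and the type I libraries were below the other 6. The H3K27me3 log2 fold change in brat RNAi against type I neuroblasts was 1.04 ± 0.18 (edgeR adjusted p = 0.45), which ranked 7 of 14182 genes by p. DESeq2, which called 36 genes in all in that comparison, gave 1.08 with an adjusted p of 0.041. The flanking genes CG17843 and CG6332 had -0.01 ± 0.31 and 0.43 ± 0.34, and the genes of at least 30 kb had a median of 0.27. Relative to the median level of those long genes, Eip93F stood at 0.861 and 0.782 times in brat RNAi, which overlapped neurons (0.645 and 0.85 times). By percentile among them, brat RNAi stayed above the other 6 libraries (33.3 and 21.2, the others at most 19.3).

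In CPM, the addition of numb RNAi went with values of Eip93F nearer to those of type I neuroblasts. Relative to the median of genes of at least 30 kb, this did not hold for H3K27me3. There Eip93F stood at 0.771 and 0.774 times in brat numb RNAi and 0.861 and 0.782 times in brat RNAi. In type I neuroblasts it stood at 0.452 and 0.548 times. Between brat numb RNAi and brat RNAi the H3K4me3 log2 fold change was 1.59 ± 0.75 (edgeR adjusted p = 1) and the H3K27me3 log2 fold change was -0.68 ± 0.18 (edgeR adjusted p = 0.2), both without overlap. Within code 68 the log2 ratios were 1.72 for H3K4me3 and -0.52 for H3K27me3. Genes of at least 30 kb had a median H3K27me3 change of -0.54 in this comparison, and under cyclic loess scaling or library totals the value of Eip93F came as near to 0 as -0.19. Against type I neuroblasts brat numb RNAi gave -0.42 ± 0.72 for H3K4me3 (edgeR adjusted p = 0.72) and 0.35 ± 0.18 for H3K27me3 (edgeR adjusted p = 0.86). The shift in CPM was not particular to Eip93F, since H3K4me3 at ase and H3K27me3 over tll moved likewise. Over all genes tested, H3K27me3 log2 CPM of the second type I library had r = 0.986 with each brat numb RNAi library. Its r with the brat RNAi libraries was 0.935 and 0.965. For the first type I library r was 0.944 and 0.958 with brat numb RNAi, and 0.97 and 0.947 with brat RNAi. The 0.97 was with the first brat RNAi library, which shares its code 26. H3K27me3 contrast was 1.91 in the second type I library and 1.67 and 1.79 in brat numb RNAi. It was 2.27 in the first type I library and 2.64 and 2.09 in brat RNAi. The part of contrast and code in these r values was not tested.

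**Figure D4:**
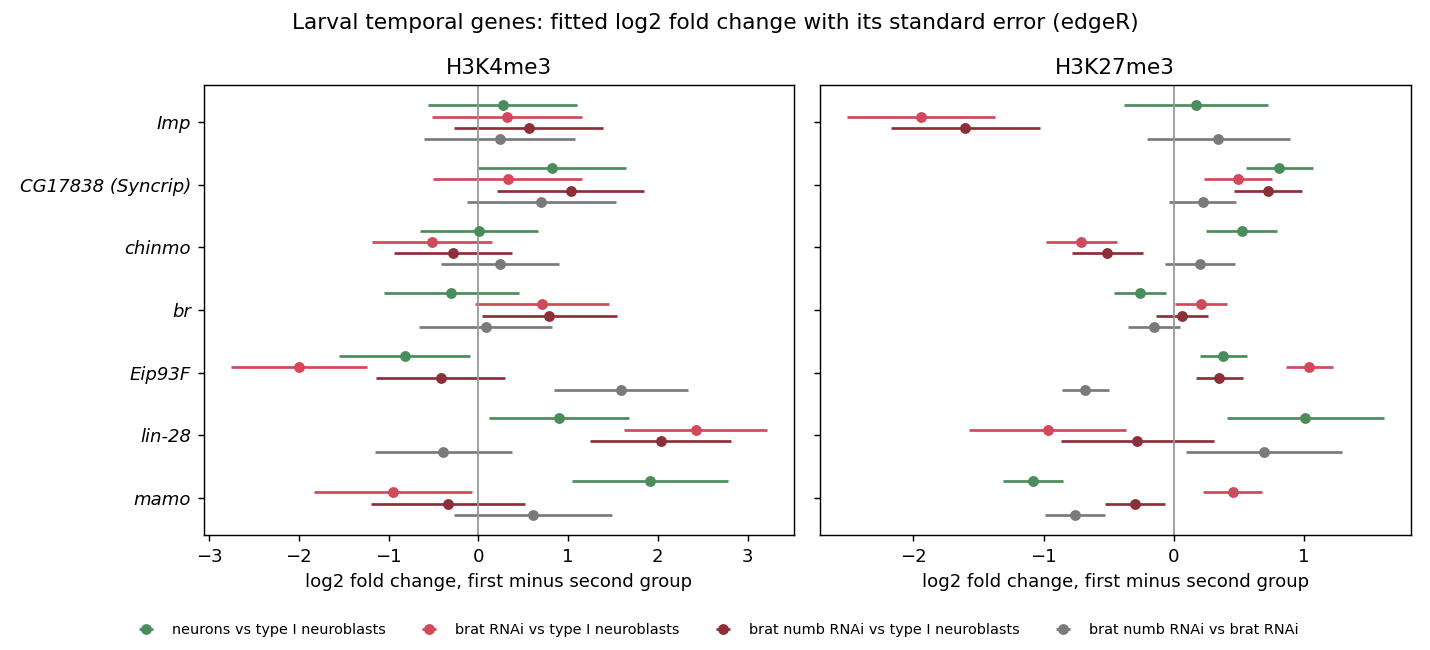
Fitted log2 fold change (points) with its standard error (bars) of the 7 genes in the 4 comparisons for H3K4me3 (left) and H3K27me3 (right), from edgeR. The bars farthest from 0 are those of lin-28, Eip93F and mamo for H3K4me3 and of Imp, Eip93F and mamo for H3K27me3; no point passed the adjusted threshold.

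Set side by side per kb, the order of the members by H3K27me3 changed with the group. In type I neuroblasts lin-28 (21.4 ± 10.1 CPM per kb; SD, n = 2), Imp (20.6 ± 8.52) and mamo (14.0 ± 3.69) led and overlapped each other. Then came chinmo at 8.95 ± 1.15 CPM per kb, and br (6.08), Eip93F (5.56) and CG17838 (3.88) were lowest. In brat RNAi mamo led at 19.2 ± 4.83 CPM per kb, above Eip93F (11.4 ± 1.80) and lin-28 (10.9 ± 1.14), which overlapped, while chinmo (5.48), CG17838 (5.46) and Imp (5.39) were lowest and overlapped. In brat numb RNAi lin-28 (17.6 ± 0.21 CPM per kb) and mamo (11.3 ± 1.29) stood above the other 5, which ranged from 6.30 to 7.10 CPM per kb. In neurons lin-28 (43.2 ± 38.5 CPM per kb), Imp (23.2 ± 17.8) and chinmo (12.8 ± 4.66) led, with libraries that overlapped, and the other 4 were at 5.08 to 7.24 CPM per kb.

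Over all 7 members, groups of 2 libraries often did not overlap, as they did for many genes. For H3K4me3, members did not overlap in 2 of 7 cases in neurons, 4 in brat RNAi and 3 in brat numb RNAi against type I neuroblasts, beside 43.1%, 43.4% and 37.7% of all genes, and in 2 of 7 in brat numb RNAi against brat RNAi, beside 15.3%. For H3K27me3 the counts were 3, 5, 4 and 5 of 7, beside 42.7%, 29.8%, 53.5% and 60.4%. The median H3K27me3 log2 fold change of the members was 0.38, 0.21, -0.28 and 0.20 beside 0.08, -0.01, -0.02 and 0.00 for all genes. For H3K4me3 it was 0.27, 0.32, 0.56 and 0.24 beside 0.24, -0.02, 0.27 and 0.01.

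Other genes of neural timing were read from lists of the embryonic temporal series (8 genes), the optic lobe and intermediate progenitor series (8), ecdysone receptor and response genes (10), and let-7, activin and RNA-binding partners (7 of 9 entries matched). No gene of these lists passed the edgeR threshold in any comparison. At an unadjusted p under 0.05 in brat RNAi, H3K4me3 had 0 higher and 0 lower of the first list, 0 and 1 of the second, 0 and 1 of the third and 0 and 1 of the last, and H3K27me3 had 0 and 0, 0 and 1, 1 and 0, and 1 and 0. In brat numb RNAi against type I neuroblasts the only such gene over both marks was Eip75B. In neurons H3K4me3 had 0 higher and 0 lower, 1 and 2, 1 and 0, and 1 and 0, and H3K27me3 had 2 and 1, 2 and 0, 2 and 0, and 0 and 0. In brat numb RNAi against brat RNAi H3K4me3 had only EcR, higher, and H3K27me3 had 0 and 0, 1 and 0, 0 and 1, and 0 and 2.

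The genes of smallest p gave these values. For the embryonic series, grh, a late factor of that series, had an H3K27me3 level of 863 ± 580 CPM in neurons and 165 ± 16.7 CPM in type I neuroblasts (log2 fold change 2.39 ± 0.50, edgeR adjusted p = 0.53). Among optic lobe and progenitor factors, tll, an orphan nuclear receptor of late optic lobe and type II neuroblasts, had an H3K27me3 level of 10.3 ± 1.01 CPM in brat RNAi, 92.4 ± 39.8 CPM in type I neuroblasts and 69.3 ± 12.1 CPM in brat numb RNAi. Its H3K27me3 log2 fold change in brat RNAi against type I neuroblasts was -3.17 ± 0.70 (edgeR adjusted p = 0.62). In the same list klu, a zinc finger gene of neuroblast growth, had an H3K4me3 level of 29.6 ± 3.15 CPM in neurons and 159 ± 54.2 CPM in type I neuroblasts (log2 fold change -2.43 ± 0.70, edgeR adjusted p = 0.07).

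Among ecdysone genes Eip75B, a nuclear receptor of the early response, had H3K4me3 at 7.39 ± 0.0066 CPM in brat RNAi and 7.70 ± 3.89 CPM in brat numb RNAi, beside 43.1 ± 48.2 CPM in type I neuroblasts, whose 2 libraries lay far apart. The H3K4me3 log2 fold change was -2.54 ± 0.72 in brat RNAi (edgeR adjusted p = 0.13) and -2.49 ± 0.72 in brat numb RNAi (edgeR adjusted p = 0.43). Hr39, another nuclear receptor of that response, had H3K27me3 log2 fold changes of 0.82 ± 0.24 in neurons and 0.80 ± 0.24 in brat RNAi (edgeR adjusted p = 0.53 and 0.68). The let-7 complex transcript CR43344, the primary RNA of the microRNA that Lin-28 acts on, had H3K4me3 at 19.5 ± 14.7 CPM in brat RNAi and 20.7 ± 11.2 CPM in brat numb RNAi, beside 52.9 ± 10.1 CPM in type I neuroblasts. Its H3K4me3 log2 fold change was -1.46 ± 0.71 in brat RNAi (edgeR adjusted p = 0.8) and -1.36 ± 0.70 in brat numb RNAi (edgeR adjusted p = 0.64). In brat numb RNAi against brat RNAi the smallest p of the ecdysone list for H3K4me3 was that of EcR, the ecdysone receptor, at 1.98 ± 0.78 (edgeR adjusted p = 1).

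The genes whose log2 CPM followed each member most closely over the 8 libraries of a mark are given as a description only, since libraries share depth, contrast and group. For H3K27me3 the highest Pearson r was with cwo for Imp (0.969), CG32495 for CG17838 (0.983), Sgs5 for lin-28 (0.982), Pgd for chinmo (0.968), CG9664 for br (0.925), amon for mamo (0.991) and CG1998 for Eip93F (0.972). CG33056 was the second gene for both Imp (0.961) and chinmo (0.96). For H3K4me3 it was br for Imp (0.843), CR43301 for CG17838 (0.968), Rab9 for lin-28 (0.956), fry for chinmo (0.982), CG7737 for br (0.887), gprs for mamo (0.976) and CG18193 for Eip93F (0.957).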

How the data were processed

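The deposited values are counts, whole numbers of reads per gene and library without normalization, in 16 tables of 14284 genes; the 14 input samples were not analysed here and no input was subtracted. Per the submitters' processing notes, Bowtie2 2.2.4, deepTools 2.5.0.1, bedtools 2.25.0 and the build dm3 were used; counting settings and duplicate handling are not given in the sources used here. Names were matched through a RefSeq table of a later build, whose positions were not used. The 8 libraries of a mark entered a single model of group means (edgeR 4.0.16 under R 4.3.3; TMM scaling, robust quasi-likelihood F-test, default low-count filter by group; 4 residual degrees of freedom), with Benjamini-Hochberg adjustment over 14185 genes (H3K4me3) or 14182 (H3K27me3) and a threshold of 0.05. The SE was taken from the fold change and F (its size over the root of F); edgeR draws it toward genes of like abundance, so it is not a gene's own spread alone. Windows of 768 genes tested for H3K4me3 and 5373 for H3K27me3 overlap another.

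Alternatives were DESeq2 1.42.0 size factors, library totals, DESeq2, cyclic loess with limma 3.58.1 (trend), no low-count filter, the compared groups alone, blocks by replicate number and by the labels' SBa code (meaning not stated), and leaving out each library. Ratios within a code are log2 of CPM plus a pseudocount of 0.5; brat numb RNAi shares no code with type I neuroblasts. The text names the 7 members, brat, numb, the nearest gene on each side and genes that overlap a member, in each comparison the gene of smallest p of a list with no call, of which a selection made after seeing values is given, and for each member the genes of highest r among tested genes of above-median abundance. Of the marker lists only ase is named, and it and the 30 kb comparison were also chosen after seeing values. The members and lists were chosen with earlier results of these data known.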

Additional observations from a re-analysis of the deposited data

How the results depend on the processing

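The 56 member values (7 genes, 4 comparisons, 2 marks) were recomputed in 868 alternatives, of which 811 kept direction and side of the threshold, 7 passed it and 50 changed sign (40 for H3K4me3, 10 for H3K27me3); 34 of the 56 never changed sign. The fold changes named in the report for H3K27me3 of Imp, chinmo and Eip93F in brat RNAi, of mamo in neurons and of CG17838, and for H3K4me3 of lin-28 in the RNAi groups, of mamo in neurons and of Eip93F in brat RNAi are among those 34. The count of members called was 0 except for 1 by DESeq2 in brat RNAi against type I neuroblasts for each mark (Eip93F), 1 for H3K27me3 in that comparison with the compared groups alone (Imp), and 1 in each H3K4me3 comparison with the SBa code as a block (mamo, lin-28, lin-28 and Eip93F), a fit that leaves 0 residual degrees of freedom for H3K27me3 and was not run there; the cause was not tested. Leaving out any library gave 0 members called.

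Genes called overall varied widely. Counts are given for neurons, then brat RNAi, then brat numb RNAi (each against type I neuroblasts), then brat numb RNAi against brat RNAi. With edgeR there were 64, 14, 0 and 0 calls for H3K4me3 as reported, 19, 23, 0 and 1 with DESeq2 size factors, 472, 45, 4 and 2 with library totals, 353, 100, 7 and 11 by DESeq2, 34, 2, 0 and 0 with loess and limma, 489, 19, 41 and 11 with the compared groups alone, and 4611, 572, 346 and 3815 with the SBa block. Leaving out a library gave 2 to 400, 0 to 53, 0 to 64 and 0 to 8. For H3K27me3, 0 in each became 49, 36, 0 and 73 by DESeq2, 11, 24, 0 and 0 with the compared groups alone, and up to 130, 14, 0 and 11 without 1 library. Library totals moved the median log2 fold change of all genes for H3K4me3 to 0.606, 0.395, 0.834 and 0.114, shifts that values under that setting include. With a replicate block the calls were 33, 31, 0 and 2 for H3K4me3 and 3, 1, 0 and 94 for H3K27me3, with no member called; with 2 libraries a group, same-numbered libraries of type I neuroblasts, brat RNAi and neurons deviated together (r 0.445 to 0.74 for H3K4me3, 0.57 to 0.619 for H3K27me3), and those of brat numb RNAi went against each of the others (r -0.616 to -0.314 and -0.415 to -0.365). The labels do not say what a number marks, and 2 numbers are too few to take as pairs.

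These log2 fold changes changed sign. For H3K4me3 in neurons, chinmo became -0.12 with DESeq2 size factors and by DESeq2 alike, br 0.23 with library totals and Imp -0.43 with loess. In brat RNAi, Imp became -0.23 with loess and -0.0425 with the SBa block, and CG17838 -0.11 with loess. For brat numb RNAi, library totals gave chinmo 0.21, Eip93F 0.12 and mamo 0.51, loess gave Imp -0.10 and chinmo 0.26, and the SBa block gave chinmo 0.15 and Eip93F 0.56. Against brat RNAi, br became -0.0445 with DESeq2 size factors, -0.0418 by DESeq2, -0.0649 with loess and -0.11 with the SBa block, which also gave lin-28 0.12 and mamo -0.35. For H3K27me3, br became 0.19 (library totals) and 0.36 (loess) against brat RNAi and -0.0003 (loess) in brat RNAi, and mamo 0.0686 (loess) in brat numb RNAi.

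Leaving out single libraries gave these ranges where the sign changed. For H3K4me3 in neurons they were -0.94 to 1.06 for Imp (negative without the second type I or second neuron library), -0.26 to 0.33 for chinmo, -1.005 to 0.30 for br and -0.52 to 1.86 for lin-28 (negative without the second neuron library). In brat RNAi they were -0.20 to 1.11 for Imp and -0.0902 to 0.95 for CG17838. Brat numb RNAi had -0.85 to 0.14 for chinmo, -0.87 to 0.26 for Eip93F and -1.58 to 0.39 for mamo, and against brat RNAi -0.14 to 0.79 for Imp, -0.33 to 0.48 for chinmo, -0.25 to 0.61 for br and -0.80 to 1.30 for mamo. For H3K27me3 they were -0.91 to 0.80 for Imp and -0.37 to 1.72 for lin-28 in neurons, and -0.0670 to 0.22 for br, -0.70 to 0.33 for lin-28 and -0.55 to 0.0183 for mamo in brat numb RNAi, where the first type I library decides the sign. Depth limits H3K4me3, where windows of the members held 10 to 1384 reads.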
